A study of Rattus norvegicus with 6 samples.

Results

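Immediate early genes are switched on by a signal before any new protein is made. Growth factors, stress and depolarisation reach them through MAP kinases, which act on serum response factor (SRF) at CArG boxes and on CREB at cAMP response elements (CREs). Their mRNAs are short-lived, and in PC12 cells, a line from a rat adrenal medullary tumor, Egr1 and Fos are classic responses to nerve growth factor. The genes described here were the rows of the count table whose symbol is Fos, Fosl1, Jun, Junb, Egr1, Egr2, Ier3, Dusp1 or Myc. These are 9 of the 10 genes listed, and Ier2, for which no row was matched, was not analysed here. All 9 passed the filter on low counts, out of 20609 genes in the table and 12624 tested. Ier3 and Dusp1 do not encode transcription factors.

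RNA was sequenced from PC12 cells of a control group (Control, n = 3) or overexpressing PCBP1, an RNA-binding protein (PCBP1-OE, n = 3). The transfected PCBP1 plasmid carried an EGFP tag. Whether the controls carried EGFP is not stated. The libraries held 19730209 to 22315623 counts on genes. Whether each is a separate culture is not clear from the labels, so p-values measure the spread between these libraries. No row was matched to Pcbp1, and the overexpression was not checked here. The markers of chromaffin cells, from which PC12 derives, were uneven. Th, the first enzyme of catecholamine synthesis, was at 7.95 ± 0.846 counts per 1 000 000 (CPM; mean ± SD, n = 3) in controls, and the control means of Dbh, Ddc, Chga and Chgb lay between 0.0297 and 0.160 CPM. Sox10 and S100b, glial markers, stood at 399.7 ± 9.45 and 233.1 ± 13.1 CPM. Most of the summed chromaffin list came from Scg2, a granule protein, at 154.6 ± 14.6 CPM, and Snap25, a protein of vesicle release, was at 11.7 ± 0.352 CPM. Dbh, Ddc, Chga and Chgb were thus near 0 in libraries labelled PC12, whereas Th, Snap25 and Scg2 were not.

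Promoter sequences came from RefSeq (build GRCr8), whose table held 250 bases before and 50 after the start of 5 of the 9 genes, Egr1, Egr2, Junb, Dusp1 and Fosl1. The stretches from 130 to 31 bases before the start are printed for Egr1 and Egr2, related genes that share a CArG box. Egr1 passed the test and Egr2 did not. Whether these sites had a part in that was not tested. Junb and Dusp1 follow as another gene that passed and another that did not. Capitals mark the CArG boxes of Egr1 and Egr2, the TATA box of Junb (TATAAA), and the CRE (TGACGTCA) and E-box (CACGTG) of Dusp1.
Egr1, chr18:26736948-26737047, plus strand: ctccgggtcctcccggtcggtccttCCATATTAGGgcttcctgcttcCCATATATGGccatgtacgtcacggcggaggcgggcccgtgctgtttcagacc
Egr2, chr20:21054472-21054571, minus strand: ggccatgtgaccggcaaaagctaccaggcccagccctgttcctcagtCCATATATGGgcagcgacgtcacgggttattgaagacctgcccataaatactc
Junb, chr19:40080996-40081095, plus strand: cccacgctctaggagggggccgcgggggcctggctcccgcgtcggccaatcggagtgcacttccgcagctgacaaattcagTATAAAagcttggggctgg
Dusp1, chr10:17184723-17184822, plus strand: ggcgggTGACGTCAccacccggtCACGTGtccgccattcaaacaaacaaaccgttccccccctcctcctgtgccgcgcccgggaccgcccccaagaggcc

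On both strands of the whole windows, a CArG box was found in 1.64% of 33469 promoters. Egr1 had 2, starting 105 and 83 bases before the gene's start, and Egr2 had 1, also starting at 83. The CRE was in 1.83% of promoters, the E-box in 6.42% and the TATA box in 14.2%. The GC box (GGGCGG, 33.1%) was found in Fosl1, Dusp1 and Egr2. Of the 5 promoters, 0 held an AP-1 site (TGANTCA, 7.33% of promoters) or an EGR site (GCGNGGGCG, 4.98%). A match describes these letters and not a bound factor.

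Junb, Myc and Egr1 rose in PCBP1-OE cells, by 19.7%, 18.6% and 26.2%. The other 6 genes did not pass the test. Counts were TMM-scaled and compared by the quasi-likelihood test of edgeR, with FDRs by Benjamini-Hochberg over all 12624 genes, and a gene is said to be called at an FDR of 0.05 or less. Of the members 3 were called higher and 0 lower, and among all genes 9.45% were called, 4.45% higher and 5.0% lower. At an unadjusted p under 0.05, 4 members were higher and 0 lower, a level that 13.6% and 14.8% of all genes passed in these directions. DESeq2, limma-voom and edgeR's exact test each called 3 members higher and 0 lower. The member count changed with single libraries, as did the count over all genes, 1193 with all libraries. Without control replicate 2, 0 members and 48 genes were called. There, 3 members were higher and 0 lower at an unadjusted p under 0.05. The share of all genes at that level was counted only for the reported test on all libraries. Without PCBP1-OE replicate 1 or 2, 1 member was called, among 169 and 136 genes. Without control replicate 1 or PCBP1-OE replicate 3, 2 members were called, among 246 and 697 genes. Without control replicate 3, 4 members were called, among 1395 genes higher and 1465 lower. No member reached a 2-fold change. The members' median log2 fold change was 0.099, beside 0.0029 over all genes. In 3 members every PCBP1-OE library lay above every control, as in 14.1% of all genes, and in 0 members every one lay below, against 16.5% of all genes. Under upper-quartile scaling the calls over all genes were 655 higher and 427 lower, in place of 562 and 631, and the same 3 members were called. A change in the share of cells expressing a gene and a change in RNA per cell cannot be told apart in these bulk libraries.

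**Figure D1:**
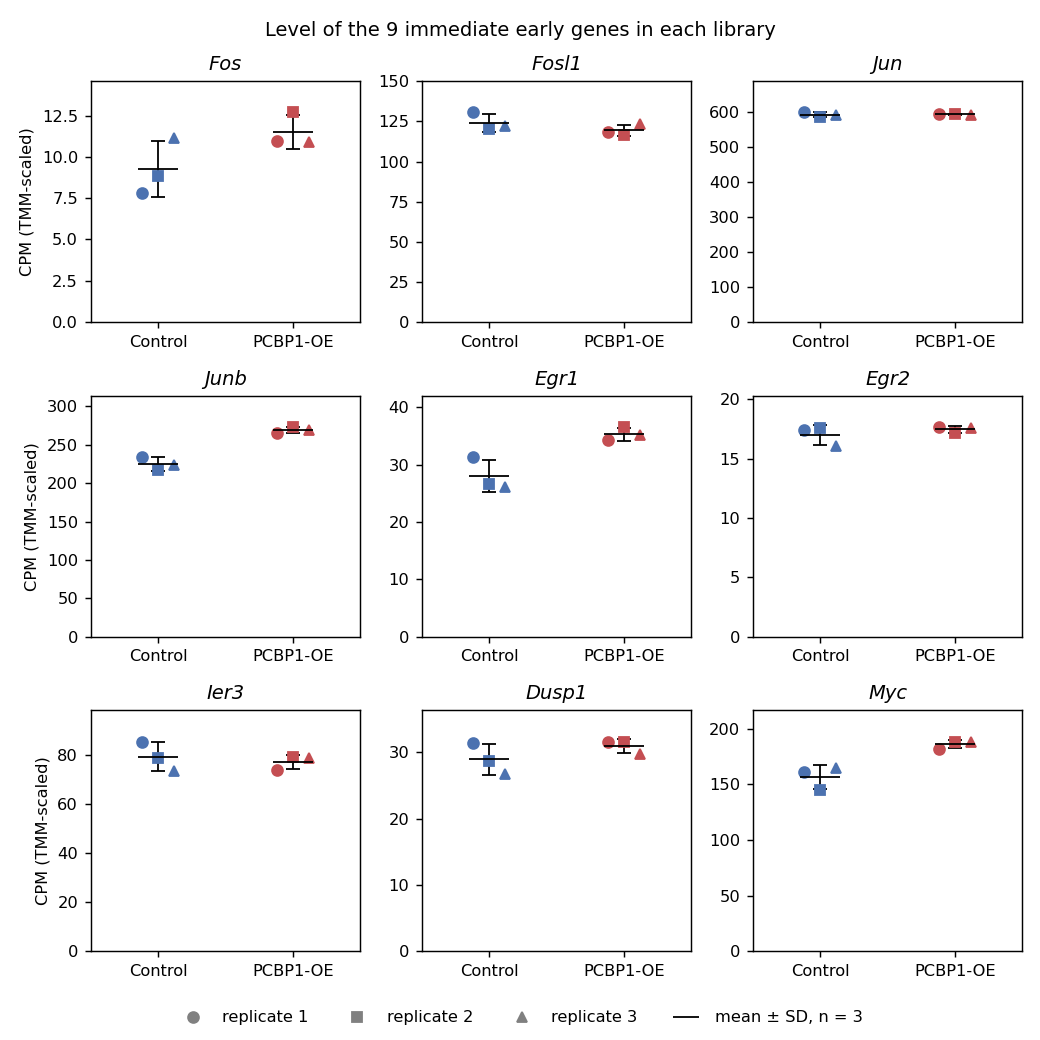
Level of the 9 genes in each library, in TMM-scaled CPM; points are libraries, shaped by replicate number, and the dash and bar give the mean ± SD of 3 libraries. The groups are separate for Junb, Egr1 and Myc and overlap for the other 6 genes.

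AP-1 is a dimer of Jun and Fos family proteins. Junb (ENSRNOG00000042838, chromosome 19), a Jun protein that often opposes Jun, was at 234.5, 217.1 and 223.5 CPM in control replicates 1 to 3, and at 265.8, 273.0 and 269.4 CPM in the PCBP1-OE replicates. The lowest PCBP1-OE library lay above the highest control. Junb rose from 225.0 ± 8.82 to 269.4 ± 3.58 CPM (n = 3 each, ± SD), a log2 fold change of 0.26 with an SE of 0.044 (edgeR FDR 0.00862). The fold was 1.20, with a 95% interval of 1.12 to 1.28. It was rank 73 by p among all genes tested. Without control replicate 2 the FDR was 0.0706, in a range of 1.89e-05 to 0.0924 over 14 alternatives.

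Jun (ENSRNOG00000026293, chromosome 5), the founding AP-1 subunit, had the smallest relative spread of the 9 genes. It was at 598.2, 585.3 and 592.1 CPM in control replicates 1 to 3, and at 595.1, 593.5 and 591.5 CPM in the PCBP1-OE replicates. The control values enclosed those of PCBP1-OE. The log2 fold change was 0.0037 with an SE of 0.040 (edgeR FDR 0.963), and the 95% interval of the fold was 0.945 to 1.06, from 11586 to 13278 counts per library. The log2 ratio of Junb to Jun counts, which is free of library scaling, was -1.35, -1.43 and -1.41 in the controls and -1.16, -1.12 and -1.13 in PCBP1-OE. The ratio was higher in every PCBP1-OE library, by 0.26 on average (exact permutation test, two-sided, p = 0.1, the lowest that 3 against 3 allow, adjusted to 0.15 over 3 ratios).

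Fos (ENSRNOG00000008015, chromosome 6), the prototype immediate early gene, had the fewest counts of the members, 153 to 256 per library. It was at 7.80, 8.86 and 11.1 CPM in control replicates 1 to 3, and at 11.0, 12.7 and 10.9 CPM in the PCBP1-OE replicates. Control replicate 3 lay above PCBP1-OE replicates 1 and 3, so the groups overlapped. The log2 fold change was 0.31 with an SE of 0.14 (edgeR FDR 0.160, unadjusted p 0.0428), and the 95% interval of the fold was 1.01 to 1.52. Without control replicate 3 Fos was called, at a log2 fold change of 0.46 (FDR 0.0204, in a range of 0.0204 to 0.431 over the alternatives).

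Fosl1 (ENSRNOG00000020552, chromosome 1) encodes Fra-1, a Fos protein that accumulates under sustained ERK signaling. It was at 130.6, 120.0 and 121.9 CPM in control replicates 1 to 3, and at 118.4, 116.6 and 123.1 CPM in the PCBP1-OE replicates. The groups overlapped, with control replicate 1 the highest. The log2 fold change was -0.056 with an SE of 0.047 (edgeR FDR 0.465), and the 95% interval of the fold was 0.896 to 1.03. The log2 ratio of Fos to Fosl1 averaged -3.76 ± 0.31 in the controls and -3.38 ± 0.16 in PCBP1-OE, with overlap (exact permutation test, p = 0.2, adjusted 0.2).

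Egr1 (ENSRNOG00000019422, chromosome 18), a zinc finger factor induced through SRF, had the largest change of the 3 called members. It was at 31.3, 26.6 and 26.1 CPM in control replicates 1 to 3, and at 34.3, 36.5 and 35.1 CPM in the PCBP1-OE replicates. The groups did not overlap, and control replicate 1 came nearest to PCBP1-OE. Egr1 rose from 28.0 ± 2.84 to 35.3 ± 1.13 CPM (n = 3 each, ± SD), a log2 fold change of 0.34 with an SE of 0.077 (edgeR FDR 0.0221). The fold was 1.26, with a 95% interval of 1.12 to 1.42. It was not called without control replicate 2 (FDR 0.121), PCBP1-OE replicate 1 (FDR 0.0813) or PCBP1-OE replicate 2 (FDR 0.0991), in a range of 2.87e-04 to 0.121 over the alternatives.

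Egr2 (ENSRNOG00000000640, chromosome 20), also named Krox20 and needed for myelination by Schwann cells, was at 17.4, 17.5 and 16.1 CPM in control replicates 1 to 3, and at 17.7, 17.1 and 17.6 CPM in the PCBP1-OE replicates. The groups overlapped. The log2 fold change was 0.039 with an SE of 0.085 (edgeR FDR 0.802), and the 95% interval of the fold, 0.904 to 1.17, overlapped that of Egr1. The log2 ratio of Egr1 to Egr2 counts was 0.84, 0.60 and 0.70 in the controls and 0.96, 1.09 and 0.99 in PCBP1-OE. It was higher in every PCBP1-OE library, by 0.30 on average (exact permutation test, p = 0.1, the lowest possible, adjusted 0.15). The CArG box that starts 83 bases before the start has the same letters in both promoters printed above.

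**Figure D2:**
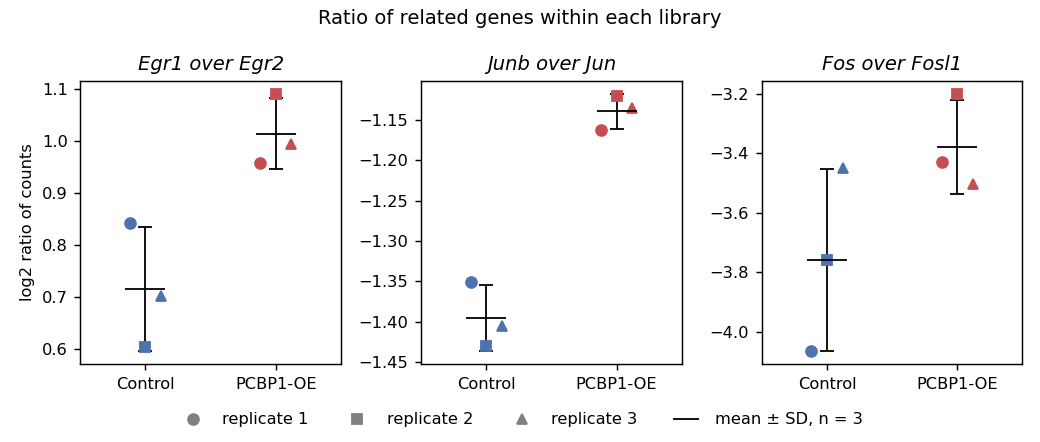
Log2 ratio of the counts of 2 related genes within each library, for Egr1 over Egr2, Junb over Jun and Fos over Fosl1; points are libraries, and the dash and bar give the mean ± SD of 3. The groups are separate for Egr1 over Egr2 and Junb over Jun and overlap for Fos over Fosl1.

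Myc (ENSRNOG00000004500, chromosome 7), a helix-loop-helix factor that drives ribosome production and growth, was at 160.7, 144.4 and 165.0 CPM in control replicates 1 to 3, and at 181.8, 187.6 and 188.3 CPM in the PCBP1-OE replicates. Control replicate 2 was the lowest library, and the groups did not overlap. Myc rose from 156.7 ± 10.8 to 185.9 ± 3.55 CPM (n = 3 each, ± SD), a log2 fold change of 0.25 with an SE of 0.052 (edgeR FDR 0.0178). The fold was 1.19, with a 95% interval of 1.10 to 1.28. With 1 library left out, Myc was called only without control replicate 3. Omitting control replicate 1 or 2 gave an FDR of 0.0588 or 0.121. Omitting PCBP1-OE replicate 1, 2 or 3 gave 0.0725, 0.0747 or 0.0524, in a range of 2.19e-04 to 0.121 over the alternatives.

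Dusp1 (ENSRNOG00000003977, chromosome 10) encodes a phosphatase that switches MAP kinases off. It was at 31.4, 28.6 and 26.8 CPM in control replicates 1 to 3, and at 31.5, 31.6 and 29.7 CPM in the PCBP1-OE replicates. The groups overlapped, with a log2 fold change of 0.099, an SE of 0.074 (edgeR FDR 0.413) and a 95% interval of the fold of 0.958 to 1.20. Ier3 (ENSRNOG00000000827, chromosome 20), a short-lived regulator of cell survival, was at 85.6, 79.0 and 73.7 CPM in control replicates 1 to 3, and at 73.9, 79.2 and 78.9 CPM in the PCBP1-OE replicates. Its groups overlapped too, with a log2 fold change of -0.037, an SE of 0.058 (edgeR FDR 0.717) and a 95% interval of the fold of 0.893 to 1.06.

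Of 34 other immediate early genes 31 were tested, of which 8 were called higher and 2 lower, 32.3% beside 9.45% of all genes. Their median log2 fold change was 0.14. Cyr61, a secreted matrix protein, rose from 124.7 ± 1.86 to 150.0 ± 1.28 CPM (n = 3 each, ± SD), a log2 fold change of 0.27 (edgeR FDR 0.00567). Gadd45b, a stress-response gene, and Plk2, a polo-like kinase, rose by 0.26 and 0.31 on the log2 scale (edgeR FDR 0.00927 and 0.00965). The others called higher, named after their values were seen, were Btg2, Klf6, Nr4a2, Klf10 and Klf4, at log2 fold changes of 0.42, 0.61, 0.55, 0.20 and 0.16. Nr4a1, an orphan nuclear receptor, fell from 92.1 ± 6.13 to 77.8 ± 3.62 CPM (n = 3 each, ± SD), a log2 fold change of -0.24 (edgeR FDR 0.0226). Id3, an inhibitor of helix-loop-helix factors, had a log2 fold change of -0.23 (edgeR FDR 0.0304). The number called was 0 without control replicate 2, and 2 higher and 0 lower without PCBP1-OE replicate 2. It was 4 higher and 0 lower without control replicate 1 or PCBP1-OE replicate 1. It was 5 higher and 1 lower without PCBP1-OE replicate 3, a fit that called 697 of all genes. It was 10 higher and 4 lower without control replicate 3, a fit that called 2860 of all genes. Without control replicate 2, 11 were higher and 3 lower at an unadjusted p under 0.05.

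**Figure D3:**
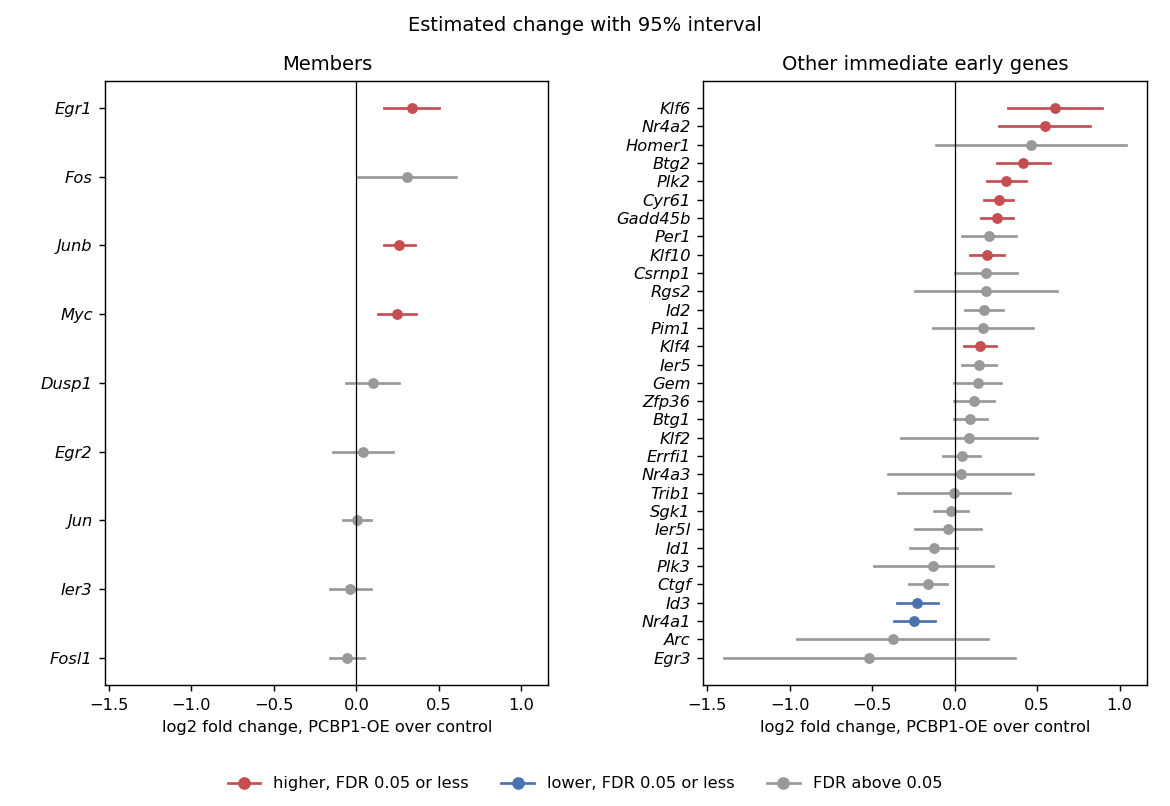
Log2 fold change of PCBP1-OE over control with its 95% interval, for the 9 genes and for 31 other immediate early genes; color marks genes called higher or lower. Junb, Myc and Egr1 are called among the 9 genes, and 8 genes higher and 2 lower among the 31.

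Of 13 AP-1 and ATF subunits outside the members 11 were tested and 0 were called, with 7 higher and 0 lower at an unadjusted p under 0.05, beside 13.6% and 14.8% of all genes. The median log2 fold change was 0.19. DESeq2 called 1 (Fosb), edgeR's exact test 2 (Fosb and Mafk), and limma-voom 0. Without a filter 3 were called, Fosb and Mafk among them. Only Mafk was called with upper-quartile scaling or without control replicate 1, and only Fosb without control replicate 3. The remaining alternatives called 0. Fosb, a Fos protein, was at 12.4 ± 1.96 CPM in the controls and 16.1 ± 1.14 CPM in PCBP1-OE (SD, n = 3 each; edgeR FDR 0.0652). Jund, the third Jun protein, had a log2 fold change of 0.064 (edgeR FDR 0.369).

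Of 17 tested genes in a list of MAP kinase feedback genes and ETS factors 2 were called, both lower. They were 11.8% of the list, beside 9.45% of all genes. The list's median was 0.030. Etv5 and Etv4, ETS factors induced by ERK, had log2 fold changes of -0.29 and -0.29 (edgeR FDR 0.0102 and 0.0105). By this test no Dusp, Spry or Spred gene of the list was called. The number called was 0 when control replicate 2 or PCBP1-OE replicate 2 was omitted. It was 0 higher and 1 lower when control replicate 1 was omitted. It was 1 higher and 3 lower when control replicate 3 was omitted, a fit that called 2860 of all genes. Without control replicate 2, 1 were higher and 2 lower at an unadjusted p under 0.05. Of 27 tested genes of the MAP kinase cascade and its SRF and CREB inputs, 1 was called higher and 2 lower, with a median of 0.034. The called genes were 11.1% of the list, beside 9.45% of all genes. Sos2, an activator of Ras, rose by 0.22 on the log2 scale (edgeR FDR 0.0208). Map2k2, which encodes MEK2, and Mapk3, which encodes ERK1, fell, at log2 fold changes of -0.25 and -0.20 (edgeR FDR 0.0141 and 0.0227). The number called in the cascade list was 0 when control replicate 1 or 2, or PCBP1-OE replicate 1 or 2, was omitted. It was 4 higher and 3 lower when control replicate 3 was omitted, beside 2860 called among all genes. Without control replicate 2, 3 were higher and 3 lower at an unadjusted p under 0.05.

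Of 13 tested partners and antagonists of Myc 2 were called, both higher, 15.4% of the list beside 9.45% of all genes. The list's median log2 fold change was 0.010. Mnt, a repressor that competes with Myc for Max, rose from 2.45 ± 0.577 to 4.12 ± 0.231 CPM (n = 3 each, ± SD), a log2 fold change of 0.74 with an SE of 0.20 (edgeR FDR 0.0372). Mycbp2, a ubiquitin ligase, had 0.34 (edgeR FDR 0.0449). The number called was 0 when any of control replicate 2, PCBP1-OE replicate 1 and PCBP1-OE replicate 2 was omitted, 1 higher and 0 lower when control replicate 1 or PCBP1-OE replicate 3 was omitted, and 3 higher and 1 lower when control replicate 3 was omitted. Without control replicate 2, 4 were higher and 0 lower at an unadjusted p under 0.05. Of 29 tested growth genes known to respond to Myc, 2 were called higher and 2 lower, 13.8% of the list beside 9.45% of all genes. The median was 0.036. Gnl3 and Wdr43, nucleolar proteins, rose by 0.19 and 0.17 on the log2 scale (edgeR FDR 0.0245 and 0.0372). Nop16 and Fbl, also nucleolar, had log2 fold changes of -0.19 and -0.20 (edgeR FDR 0.0407 and 0.0425), and neither was called with upper-quartile scaling. The number called in the growth list was 0 when control replicate 1 or 2, or PCBP1-OE replicate 1 or 2, was omitted. It was 0 higher and 1 lower when PCBP1-OE replicate 3 was omitted. It was 4 higher and 7 lower when control replicate 3 was omitted, beside 2860 called among all genes. Without control replicate 2, 3 were higher and 4 lower at an unadjusted p under 0.05.

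Many immediate early mRNAs carry AU-rich elements that mark them for decay. Of 8 tested binders of such elements 1 was called, 12.5% of the list beside 9.45% of all genes. The list's median log2 fold change was 0.12. Zfp36l1, which promotes this decay, rose from 94.9 ± 4.65 to 123.6 ± 2.40 CPM (n = 3 each, ± SD), a log2 fold change of 0.38 with an SE of 0.047 (edgeR FDR 0.00149), and it was called with each library left out in turn. Its relative Zfp36, which is also among the immediate early genes above, was at 48.0 ± 2.29 CPM in the controls and 52.1 ± 1.77 CPM in PCBP1-OE (SD, n = 3 each; edgeR FDR 0.187).

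Profiles over the 6 libraries were compared by z-scoring log2(CPM + 1) and taking the root mean square difference, where 0 is the same shape. Nearest to Fos were Usp20, Nkiras2 and LOC498369, at 0.0823, 0.103 and 0.108, and none of them was called. Nearest to Egr1 were Fgfr1op2, Tns1 and Alkbh8, at 0.106, 0.119 and 0.122, of which Tns1 was called (log2 fold change 0.59, edgeR FDR 0.0220). Nearest to Myc were Slk, Lrrc8c and Wdr75, at 0.0926, 0.106 and 0.114. Slk and Wdr75 were called, at log2 fold changes of 0.65 and 0.18 (edgeR FDR 0.00961 and 0.0337).

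Markers of other cell types were read beside these results. The 6 glial markers summed to 620.1 to 664.7 CPM over the controls against 586.5 to 606.6 CPM over PCBP1-OE. The 4 fibroblast markers with a row summed to 225.0 to 230.4 CPM over the controls against 200.1 to 212.2 CPM, nearly all of it Pdgfra. Both sums were lower in every PCBP1-OE library than in any control, as were 16.5% of all genes taken singly. Most of the glial sum in the controls came from Sox10 and S100b. The 5 leukocyte markers with a row summed to 7.60 to 8.96 CPM over the controls against 6.89 to 7.66 CPM, with Ptprc at control and PCBP1-OE means of 0.0446 and 0.0813 CPM. The 11 chromaffin markers with a row summed to 165.0 to 194.8 CPM over the controls against 152.2 to 168.5 CPM. By edgeR's quasi-likelihood test 0 markers were called in any of these lists, while at an unadjusted p under 0.05 the glial list had 0 higher and 2 lower, the fibroblast and chromaffin lists 0 and 1 each, and the leukocyte list 0 and 0. DESeq2 called 1, Pdgfra, lower. The part of these cell types in the changes of Junb, Myc and Egr1 was not tested.

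**Figure D4:**
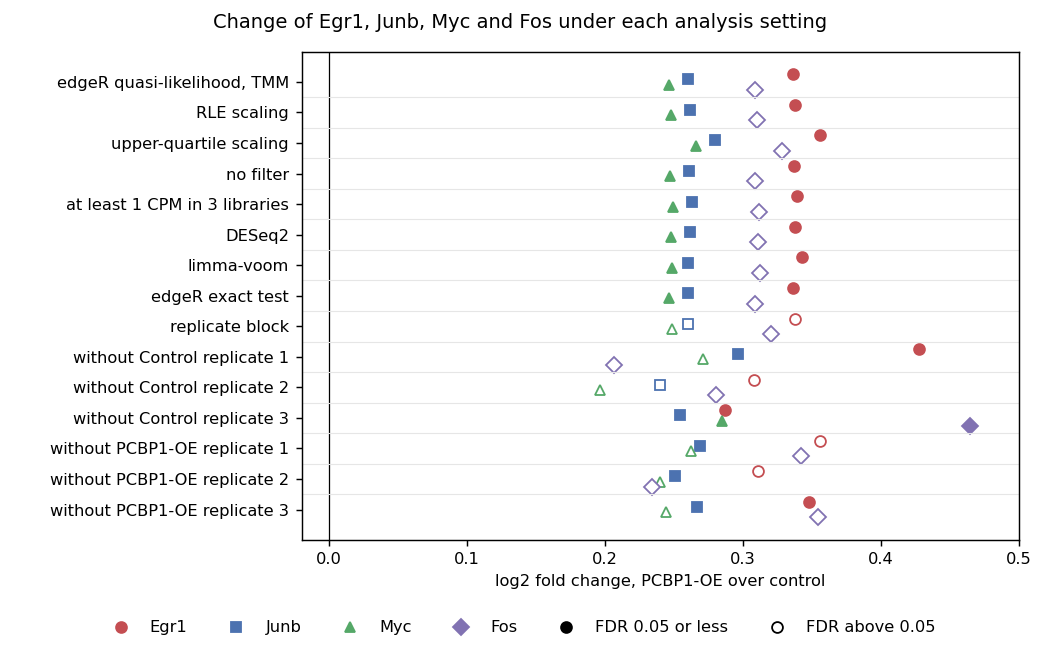
Log2 fold change of Egr1, Junb, Myc and Fos under the reported test and 14 alternatives; filled symbols are called at an FDR of 0.05 or less. All values lie between 0.20 and 0.46, and open symbols of Junb, Egr1 and Myc occur only where a library is left out or the replicate number is a block.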

How the data were processed

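RNA-seq libraries of 3 Control and 3 PCBP1-OE samples were grouped by their labels. The authors deposited raw counts per gene. By the study's methods, reads were trimmed (FASTX-Toolkit), mapped to rat genome Rnor_6.0 (TopHat2) and kept if uniquely placed, while the submitters' processing notes list human GRCh38. The gene IDs are rat. The libraries were strand-specific, but the counter and whether it used strand: not given in the sources used here. Overlapping genes may therefore be uncertain.

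Here, counts (19730209 to 22315623 per library) were fitted with edgeR 4.0.16 in R 4.3.3 after filterByExpr (10 counts, total 15), and the script was tested on simulated data. Alternatives comprised 2 scalings (RLE, upper-quartile), 2 filters (none; 1 CPM in 3 libraries), DESeq2 1.42.0, limma-voom (limma 3.58.1), edgeR's exact test, blocking by replicate number, and omission of each library. Ratios were tested with scipy 1.17.1. The members and lists were chosen with earlier results of these data known. Named genes were all members, up to 3 called genes per list and direction by p, and the 3 nearest profiles of Fos, Egr1 and Myc. Fosb, Mafk, Jund, Zfp36, the 5 further immediate early genes and the markers were named outside this rule, after their values were seen.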

Additional observations from a re-analysis of the deposited data

How the results depend on the processing

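Junb, Myc and Egr1 were the 3 members called under both other scalings, both other filters, DESeq2, limma-voom and edgeR's exact test. Leaving out 1 library gave 0 to 4 called members (0 without control replicate 2, 4 without control replicate 3), a median member log2 fold change of 0.045 to 0.17, and 48 to 2860 called genes overall. Without a filter 2090 genes were called. With the replicate block, 0 members and 16 genes were called (3 members higher at an unadjusted p under 0.05; edgeR FDR 0.0924 for Junb, 0.113 for Myc and 0.118 for Egr1), and Zfp36l1 was not called either (FDR 0.0524). Whether same-numbered libraries are pairs is not clear from the labels. Deviations of same-numbered libraries correlated across genes at -0.0776, -0.0514 and -0.0428. Those of differently numbered libraries correlated at -0.00757 to 0.0602. No same-numbered libraries correlated positively. Deviations within a group of 3 sum to 0, so these values depend on each other. Alone they cannot decide whether the libraries were paired. The log2 fold change of Egr2 turned to -0.0018 without control replicate 3 (range to 0.068 over left-out libraries) and that of Ier3 to 0.025 without control replicate 1 (range down to -0.090), with neither called. The causes were not tested.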

Other observations

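The spread between libraries differed between the groups. The coefficient of variation of CPM was larger among controls than among PCBP1-OE libraries in 9 of 9 members and in 59.0% of all genes tested, with medians over all genes of 7.05% and 6.04%. For Fos it was 18.4% and 8.84%, where counting alone gives 7.14% and 6.50%. For Myc it was 6.92% and 1.91%, where counting gives 1.74% and 1.62%. For Egr1 it was 10.2% and 3.20%, where counting gives 4.14% and 3.71%. In PCBP1-OE the coefficient lay below that from counting for Egr1, Egr2, Jun, Junb and Dusp1. It lay above it for Fos, Fosl1, Ier3 and Myc. Among controls it lay below only for Egr2. This comparison was made after the values were seen and was not tested.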
